A study of Homo sapiens with 6 samples.

Results

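The heat shock proteins of the cytosol and the mitochondria, with their partner BAG3, were examined in HCCC9810 cells, an established human cholangiocarcinoma (CCA) cell line, treated with isolinderalactone (ILL), a sesquiterpenoid lactone. They were taken by symbol as the 10 genes HSPA1A, HSPA1B, HSPA8, HSP90AA1, HSP90AB1, HSPH1, HSPB1, HSPD1, HSPE1 and BAG3 out of the 19470 genes of the count table, and all 10 passed the filter on low counts that left 13066 genes for testing. Wild-type cells received 20 μM ILL or its vehicle, DMSO, for 24 h, and RNA was sequenced from 3 libraries per group. The labels do not say whether the 3 libraries of a group came from separate cultures, so p-values measure the spread between these libraries, which may be technical.

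Heat shock proteins are molecular chaperones, which bind unfolded polypeptides and help them fold, refold or be handed on for degradation. In the cytosol, HSP70 and HSP90 work as ATP-driven machines with co-chaperones, small heat shock proteins hold unfolded proteins without ATP, and inside mitochondria the HSP60 ring and its lid HSP10 enclose newly imported proteins. Many of these genes are transcribed by heat shock factor 1 (HSF1), which binds heat shock elements, runs of the unit GAA and its reverse complement TTC that alternate at 5-base steps. Some of the genes are known mainly as inducible by stress (HSPA1A, HSPA1B), and others as abundant in unstressed cells (HSPA8, HSP90AB1).

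The 10 genes did not move together. HSPB1, HSPA1A, HSPA1B and BAG3 were higher with ILL, and HSPA8, HSP90AA1, HSP90AB1, HSPH1, HSPD1 and HSPE1 were lower. By edgeR's quasi-likelihood test at a Benjamini-Hochberg adjusted p-value under 0.05 over all tested genes, 4 of the 10 were changed toward higher and 6 toward lower counts, where 36.2% of all tested genes were changed higher and 36.9% lower. With the further cutoff of a fold change above 2 or under 0.5, which defines a differentially expressed gene (DEG), 1 of the 10 was higher (HSPB1) and 3 were lower (HSPH1, HSPD1 and HSPE1), against 12.5% and 11.4% of all tested genes. In none of the 10 did any ILL library overlap a control library, which was also so for 37.5% of all tested genes in the higher and 38% in the lower direction. The median log2 fold change of the 10 genes was -0.76, and that of all tested genes was -0.0012. In bulk RNA, fewer transcript-bearing cells of a kind and less RNA per cell cannot be told apart.

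**Figure D1:**
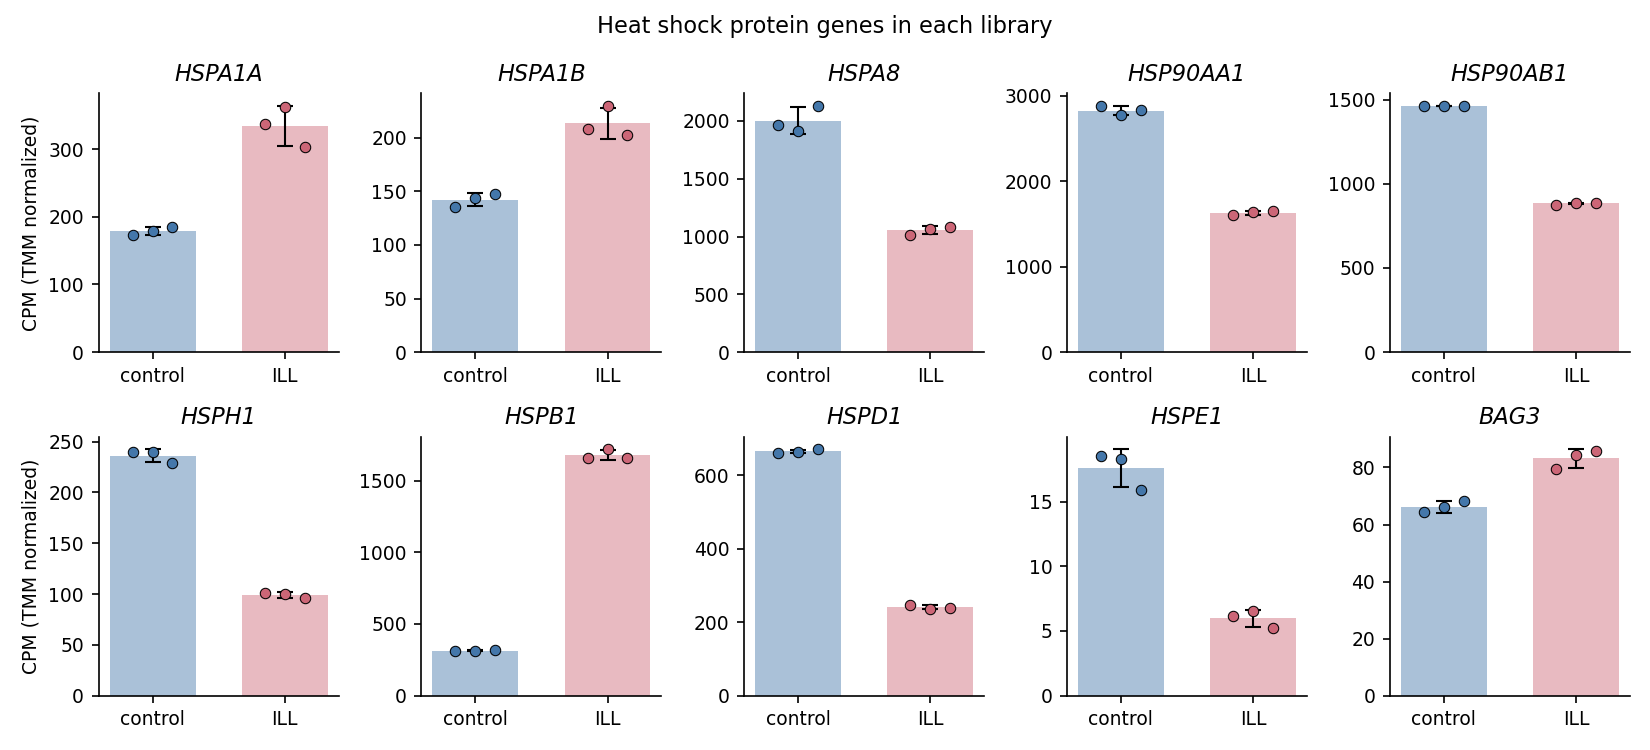
CPM (counts scaled to a common library size after TMM normalization, vertical axes starting at 0) of each of the 10 genes, with a point for each library and bars for the mean with the SD of 3 libraries per group. The points of the control and ILL groups are separate in every panel, with HSPA1A, HSPA1B, HSPB1 and BAG3 higher with ILL and the other 6 genes lower.

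Total counts lay between 34282764 and 37758569 per library, and no library stood apart, with the first principal component (85.0% of the variance) separating the groups. All 7 biliary epithelial markers were detected, with a summed level of 9049.5 to 9292 CPM in control libraries and 9531 to 10120.2 CPM in ILL libraries, but each was changed, 3 higher and 4 lower. Among them CDH1 was higher by a log2 fold change of 2.07 and KRT7 by 0.64, and KRT18 and SOX9 had log2 fold changes of -0.82 and -0.56. Of the 5 immune markers, 3 were under 1 CPM in every library, among them PTPRC and CD3E, while CD68 was 37.8 ± 2.67 CPM (SD, n = 3) in controls and 113 ± 3.41 CPM with ILL and CD79A 0.333 ± 0.164 and 1.45 ± 0.463 CPM, so that their sum was 37.0 to 41.8 CPM and 113 to 119 CPM. The 6 hepatocyte markers summed to 7.03 to 10.3 CPM in controls and 7.48 to 17.9 CPM with ILL (ALB changed higher, HNF4A lower, CYP3A4 at 0). ALB was at 6.31, 4.55 and 6.79 CPM in controls and at 6.11, 6.97 and 15.5 CPM with ILL. Its groups overlapped, and its call held in 10 of 16 alternative analyses. The 6 fibroblast and endothelial markers summed to 10.6 to 13.7 CPM in controls and 14.5 to 18.0 CPM with ILL (COL1A1 changed higher). The part of these markers in the results was not tested.

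Promoter sequence is shown first, since heat shock elements are the sites that HSF1 binds. Genes with and without an exact match moved both ways, and HSF1 binding was not measured. RefSeq promoter windows (GRCh38.p14, 250 bases before to 50 after a start site) matched all 10 genes, with 14 windows in all because some genes have several start sites. Both strands were searched for GAANNTTC and TTCNNGAA, the 2 arrangements of 2 adjoining units, and overlapping matches were joined into longer runs. Such a match was found in 7 of the 14 windows, against 13.5% of all 35116 windows, and in 7 of the 10 genes, against 16.2% of all 27305 genes with a window. A run of at least 3 units was found in 4 of the 14 windows, against 0.490% of all windows, and in 4 of the 10 genes, against 0.608% of all genes. The stretches below are printed 5′ to 3′ on the gene's strand, with the units and their spacers in capitals. They are the runs of each gene that had any, except for a 2-unit run of HSP90AA1 beside its longer one.

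The genes that rose held at most 2 units by this exact search. HSPA1A and HSPA1B carry the same run, which begins 106 and 105 bases before their starts, and their promoters are identical at 94.4% of 249 aligned bases. Both also have a TATAAA match, which begins 30 and 29 bases before the start and which 11.5% of all windows hold on either strand. The run of HSPB1 begins 182 bases before its start, and BAG3 had none.
HSPA1A, chr6:31815426-31815455, plus strand: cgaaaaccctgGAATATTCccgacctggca
HSPA1B, chr6:31827613-31827660, plus strand: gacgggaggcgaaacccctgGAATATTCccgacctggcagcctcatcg
HSPB1, chr7:76302471-76302518, plus strand: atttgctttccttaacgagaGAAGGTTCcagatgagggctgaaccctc

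Every gene with a run of 3 or more exact units was among those that fell, and inexact units were not searched for. HSPA8 has 2 such runs, which begin 230 and 55 bases before the start, and HSP90AB1 has 2, which begin 165 and 112 bases before its start at 44247943. The run of HSP90AA1 begins 88 bases before its start at 102087044. That of HSPD1, with 4 units, begins 245 bases before its start at 197499840. The same run lies downstream of another HSPD1 start, at 197500274, whose own window held no match. It also lies just outside the window of HSPE1, on the side before the HSPE1 start at 197500379. HSPH1 and HSPE1, which also fell, had no match in their windows, and a lack of these letters in a window says nothing of the factor itself. The elements of HSPA8, HSP90AA1 and HSPD1 overlap exons of longer transcripts of the same genes in GENCODE 29, and that of HSPD1 also overlaps an exon of HSPE1.
HSPA8, distal run, chr11:123062346-123062374, minus strand: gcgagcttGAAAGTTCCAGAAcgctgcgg
HSPA8, proximal run, chr11:123062171-123062199, minus strand: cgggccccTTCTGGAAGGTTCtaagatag
HSP90AA1, chr14:102087112-102087140, minus strand: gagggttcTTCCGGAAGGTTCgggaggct
HSP90AB1, distal run, chr6:44247758-44247810, plus strand: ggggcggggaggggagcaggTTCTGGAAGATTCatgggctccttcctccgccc
HSP90AB1, proximal run, chr6:44247811-44247863, plus strand: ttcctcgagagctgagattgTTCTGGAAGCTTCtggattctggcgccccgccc
HSPD1, chr2:197500062-197500090, minus strand: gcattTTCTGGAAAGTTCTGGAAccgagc

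The largest change was in the small heat shock protein HSPB1 (HSP27), an ATP-independent chaperone that also binds actin filaments, on chromosome 7 from 76302544 to 76304295 (GRCh38, GENCODE 29, plus strand). It was at 308, 312 and 316 CPM in the control libraries and at 1659, 1718 and 1656 CPM in the ILL libraries. Every ILL library lay far above every control library, and the libraries within a group were close together. HSPB1 rose 5.37-fold (95% confidence interval 5.02 to 5.75), a log2 fold change of 2.43 (SE 0.05, edgeR adjusted p = 9.0e-23), rank 297 from the highest of the tested genes. By FPKM, which sets the count against gene length and library total, it moved from rank 166 to rank 20 of all genes. Among the other small heat shock protein genes, 7 of 9 were under 1 CPM in every library, and the 2 that were tested moved in opposite directions. HSPB8, the partner of BAG3 in clearing misfolded proteins, rose from 5.39 ± 0.347 to 16.5 ± 0.899 CPM (log2 fold change 1.61, SE 0.12, adjusted p = 1.3e-11), while HSPB11, which is known as a component of intraflagellar transport, fell by 0.79 on the log2 scale (adjusted p = 1.4e-09).

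The stress-inducible HSP70 genes HSPA1A and HSPA1B rose, by less than HSPB1. They encode the same cytosolic chaperone from neighbouring intronless genes on chromosome 6, HSPA1A from 31815464 to 31817946 and HSPA1B from 31827735 to 31830255. HSPA1A was at 173, 179 and 185 CPM in the control libraries and at 337, 362 and 303 CPM in the ILL libraries. HSPA1B was at 135, 144 and 148 CPM in the control libraries and at 208, 229.8 and 203 CPM in the ILL libraries. In both genes the ILL libraries spread more widely than the controls and stayed above them. HSPA1A rose 1.87-fold (95% confidence interval 1.72 to 2.03), a log2 fold change of 0.90 (SE 0.06, edgeR adjusted p = 8.5e-13). HSPA1B rose 1.50-fold (95% confidence interval 1.38 to 1.63), a log2 fold change of 0.59 (SE 0.06, adjusted p = 1.6e-09).

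The split of reads between these 2 genes is uncertain, since 72.6% of all 50-base stretches of the HSPA1A transcript and 69.9% of its 100-base stretches also occur in HSPA1B, and how reads matching both were counted is not given in the sources used here. Summed to 1 gene, they held 11960, 11320 and 11787 counts in the control libraries and 19084, 20375 and 17677 counts in the ILL libraries. The sum rose by a log2 fold change of 0.77 (SE 0.06, adjusted p = 6.5e-12), between those of the separate genes. The ratio of HSPA1A to HSPA1B counts was 1.24 to 1.27 in controls and 1.49 to 1.62 with ILL, without overlap.

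HSPA8 (HSC70), the constitutive HSP70 of the cytosol, went the other way. The gene lies on chromosome 11 from 123057489 to 123063230, on the minus strand. It was at 1965, 1911 and 2131 CPM in the control libraries and at 1016, 1065 and 1087 CPM in the ILL libraries, so that the highest ILL library was well below the lowest control. HSPA8 fell to 0.527 of its control level (95% confidence interval 0.491 to 0.566), a log2 fold change of -0.92 (SE 0.05, edgeR adjusted p = 1.8e-14). As its counts fell while those of the inducible genes rose, the summed counts of HSPA1A and HSPA1B were 0.161 ± 0.00692 of those of HSPA8 in controls and 0.519 ± 0.0478 with ILL (SD, n = 3), a 3.23-fold change of the ratio. Such ratios of counts within a library do not depend on library scaling. Over 6 libraries the smallest two-sided p of an exact permutation test is 0.1, which this ratio reached (adjusted over 8 ratios, 0.114), so that no ratio could pass 0.05.

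The nucleotide exchange factors of HSP70, which release ADP and so free the bound client, differed in direction. HSPH1 (HSP105), a large HSP70 relative on chromosome 13 from 31134974 to 31162388, was at 240.2, 239 and 229 CPM in the control libraries and at 101, 100.1 and 95.8 CPM in the ILL libraries. HSPH1 fell to 0.419 of its control level (log2 fold change -1.26, SE 0.05, edgeR adjusted p = 1.2e-16). BAG3, which links HSP70 to small heat shock proteins and to autophagy, lies on chromosome 10 from 119651370 to 119677819. It was at 64.3, 66.1 and 68.2 CPM in the control libraries and at 79.5, 84.2 and 85.7 CPM in the ILL libraries. The 2 groups did not overlap, but the gap was the narrowest in proportion among the 10 genes, and BAG3 rose 1.26-fold (95% confidence interval 1.15 to 1.37, log2 fold change 0.33, SE 0.06, adjusted p = 2.3e-05). Against HSPA8, the ratio of BAG3 counts rose from 0.0331 ± 0.00133 to 0.0788 ± 0.000425, and that of HSPH1 counts moved from 0.118 ± 0.00951 to 0.0939 ± 0.00562, each without overlap and each with an exact permutation p of 0.1 (adjusted 0.114).

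The cytosolic HSP90 genes fell by similar amounts. HSP90 holds kinases, steroid receptors and other clients in a state ready for activation, and the cell makes an inducible form from HSP90AA1 and a constitutive form from HSP90AB1. HSP90AA1, on chromosome 14 from 102080738 to 102139699, was at 2882, 2770.3 and 2831 CPM in the control libraries and at 1599.7, 1639.6 and 1649 CPM in the ILL libraries. HSP90AB1, on chromosome 6 from 44246166 to 44253888, was at 1461, 1463 and 1461 CPM in the control libraries and at 876, 884 and 887 CPM in the ILL libraries. Libraries of a group lay close together in both genes. The levels with ILL were 0.576 of the control for HSP90AA1 (log2 fold change -0.80, SE 0.04, edgeR adjusted p = 2.9e-14) and 0.604 for HSP90AB1 (log2 fold change -0.73, SE 0.04, adjusted p = 2.2e-13). The ratio of HSP90AA1 to HSP90AB1 counts was 1.93 ± 0.0391 in controls and 1.85 ± 0.0182 with ILL, a log2 difference of -0.07 that, though without overlap, was the smallest in size of the 8 ratios.

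The largest decreases were in the mitochondrial chaperonin. HSPD1 (HSP60) spans chromosome 2 from 197486581 to 197516737 on the minus strand. HSPE1 (HSP10), from 197499994 to 197503457 on the plus strand, lies within that span. A pair of their RefSeq start sites stands head to head, only 105 bases apart. HSPD1 was at 661, 662 and 670.4 CPM in the control libraries and at 247, 236 and 238 CPM in the ILL libraries. HSPE1 was at 18.5, 18.3 and 15.9 CPM in the control libraries and at 6.14, 6.57 and 5.26 CPM in the ILL libraries. Both groups were tight in HSPD1 and wider, in proportion, in the far lower counts of HSPE1. HSPD1 fell to 0.362 of its control level (95% confidence interval 0.338 to 0.388, log2 fold change -1.47, SE 0.05, edgeR adjusted p = 9.6e-19). HSPE1 fell to 0.341 (95% confidence interval 0.286 to 0.407, log2 fold change -1.55, SE 0.12, adjusted p = 3.8e-11). The ratio of HSPD1 to HSPE1 counts, 38.0 ± 3.66 in controls and 40.5 ± 4.65 with ILL, overlapped between the groups (exact permutation p = 0.6, adjusted 0.6), and was the only one of the 8 ratios that did.

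The low level of HSPE1 itself carries limits. It lies within the span of HSPD1 on the other strand, and the strand setting of the libraries is not given. How reads of overlapping exons were counted is therefore unknown. Named after HSPE1 are 26 pseudogenes, and 17 after each of HSPD1 and HSPA8. The readthrough gene HSPE1-MOB4 was listed at 0 in all 6 libraries. Of the 50-base stretches of HSPE1, 39.2% occur in another gene, most of them in HSPE1-MOB4. The share was 26.5% in HSPD1, 18.8% in HSP90AB1, 17.5% in HSP90AA1, 16.5% in HSPA8 and 11.4% in HSPB1, and in HSPH1 and BAG3 no stretch was shared. Of the genes without shared stretches, HSPH1 fell and BAG3 rose. The part of shared sequence in the changes was not tested.

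Compared per length, by FPKM, the order of the 10 genes was rearranged. In controls the order from the highest was HSPA8 at 898 ± 47.9 FPKM (SD, n = 3), HSP90AA1 at 736 ± 16.0, HSP90AB1 at 524 ± 2.61, HSPB1 at 411 ± 3.03 and HSPD1 at 288 ± 0.977, followed by HSPA1A, HSPA1B, HSPH1, HSPE1 and BAG3 at 76.3 to 26.5 FPKM. With ILL, HSPB1 led at 2107 ± 33.6 FPKM, above HSPA8 at 451 ± 13.8, HSP90AA1 at 404 ± 4.91, HSP90AB1 at 302 ± 1.41 and HSPA1A at 136 ± 11.8. HSPD1 followed at 99.4 ± 3.03 FPKM, and HSPA1B, BAG3, HSPH1 and HSPE1 lay between 82.8 and 10.5 FPKM. No gene overlapped its neighbour in the order in either group.

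**Figure D2:**
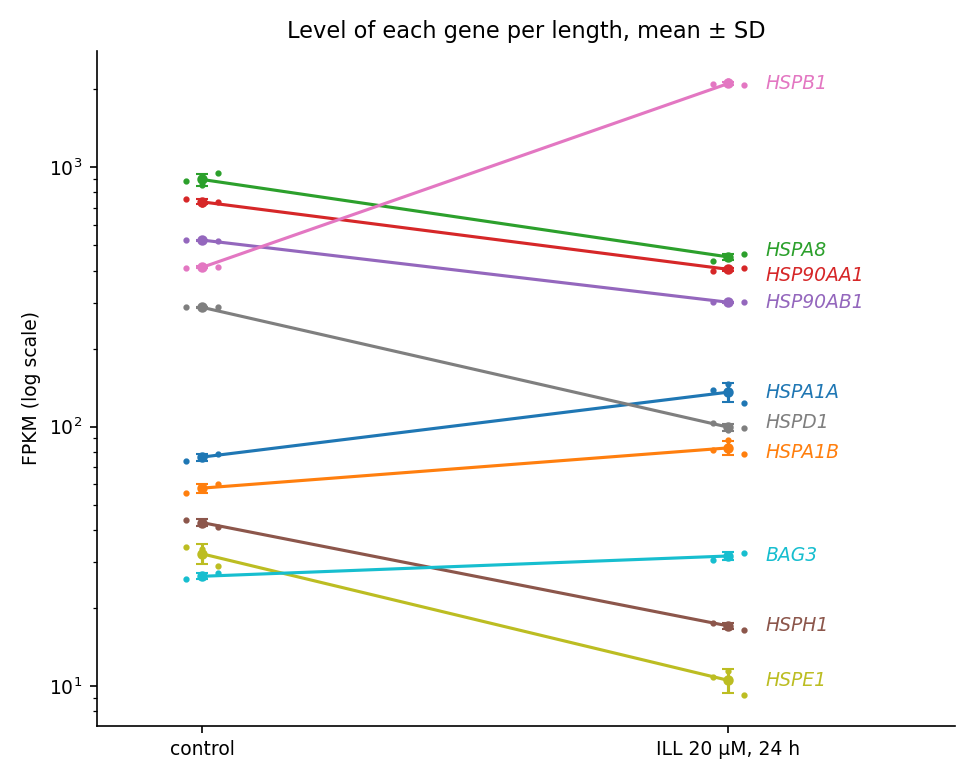
FPKM on a log axis of the 10 genes in control and ILL libraries, with small points for the 3 libraries of a group, and large points with bars for the mean and SD, joined by a line for each gene. HSPB1 goes from 411 to 2107 FPKM and crosses HSPA8, HSP90AA1 and HSP90AB1, and HSPD1, falling from 288 to 99.4 FPKM, crosses the rising HSPA1A.

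Per length, HSPB1 came to make up most of the group. Its share of the summed FPKM of the 10 genes was 13.3% ± 0.211 in controls and 57.9% ± 0.287 with ILL (SD, n = 3), whereas its share of their summed counts was 3.95% ± 0.0663 and 27.0% ± 0.259, close to the 26.2% ± 0.330 of HSP90AA1 with ILL. The FPKM share of HSPA8 was 28.2% to 30.2% in control libraries and 12.1% to 12.8% in ILL libraries. The FPKM share of HSP90AA1 was 23.8% ± 0.522 in controls and 11.1% ± 0.193 with ILL. The direction of the sum of all 10 genes depended on the scale. In raw counts they held 0.810% ± 0.0128 of a control library and 0.607% ± 0.0059 of an ILL library, whereas of the summed FPKM of all genes they held 0.678% ± 0.0134 and 0.828% ± 0.0215. The length behind the FPKM values was 777 bases for HSPB1 and 3936 for HSP90AA1, so the short HSPB1 weighs more per read in FPKM.

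**Figure D3:**
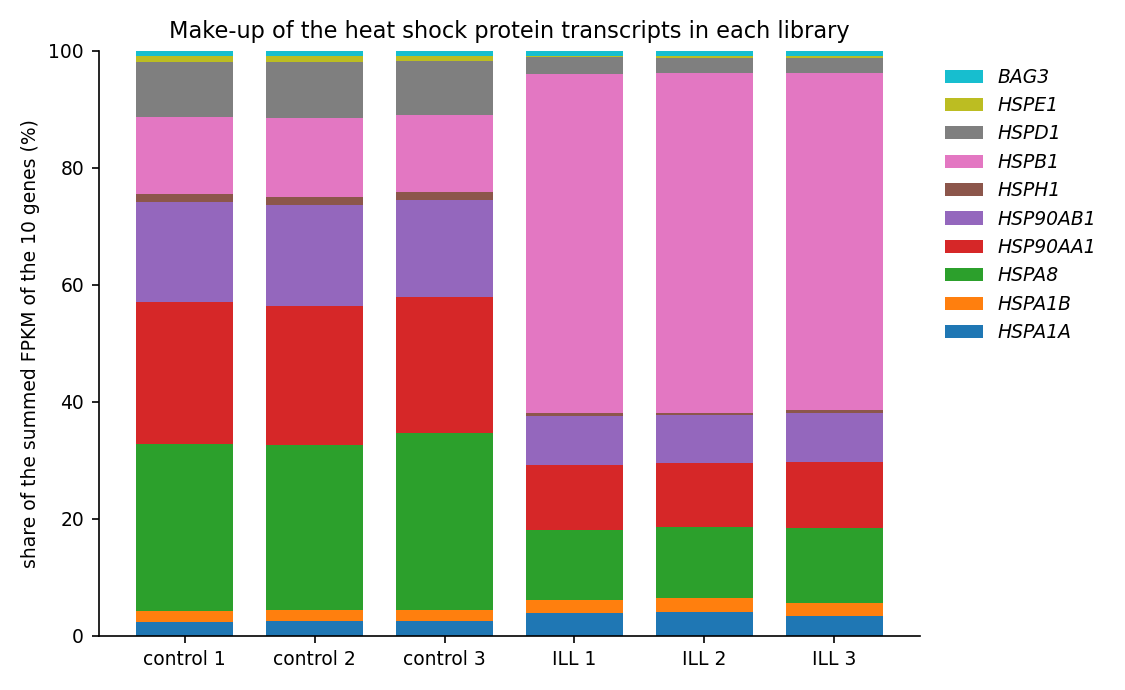
Share of each of the 10 genes in their summed FPKM (vertical axis, percent) in each control and ILL library, stacked to 100%. HSPB1 takes 13.2% to 13.5% in the control libraries and 57.5% to 58.1% in the ILL libraries, and the shares of HSPA8, HSP90AA1, HSP90AB1 and HSPD1 are smaller with ILL.

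In the endoplasmic reticulum (ER), which has its own HSP70 and HSP90, the counterparts of HSPA8 and of the cytosolic HSP90 genes moved the other way. HSPA5 (BiP), the HSP70 of the ER, rose from 388 ± 14.5 to 757 ± 29.9 CPM (log2 fold change 0.96, SE 0.05, edgeR adjusted p = 8.5e-15), and HSP90B1 (GRP94) rose from 617 ± 12.0 to 734 ± 23.7 CPM (log2 fold change 0.25, SE 0.05, adjusted p = 4.1e-05). The ratio of HSPA8 to HSPA5 counts was 5.16 ± 0.112 in controls and 1.40 ± 0.0704 with ILL, and that of HSP90AB1 to HSP90B1 was 2.37 ± 0.0466 and 1.20 ± 0.0337, each without overlap (exact permutation p = 0.1, adjusted 0.114). Of 15 ER chaperone genes, all tested, 9 were changed higher and 3 lower, with a median log2 fold change of 0.21. HERPUD1, which takes part in ER-associated degradation, rose by a log2 fold change of 2.41 and DNAJB9, a co-chaperone of HSPA5, by 1.80 (adjusted p = 2.1e-21 and 2.5e-15), whereas SDF2L1 fell by 0.87 on the log2 scale (adjusted p = 5.5e-11).

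Among the partners of the cytosolic chaperones, those of HSP90 mostly fell and those of HSP70 were mixed. Of all tested genes, 36.2% were changed higher and 36.9% lower. Of 14 HSP90 co-chaperone genes 13 were tested, 2 were changed higher and 10 lower, and the median log2 fold change was -0.49. The largest decreases on this list were in FKBP5 and FKBP4. FKBP5 fell from 10.7 ± 1.08 to 2.75 ± 0.541 CPM (log2 fold change -1.96, SE 0.17, adjusted p = 1.8e-10), with a log2 fold change of -0.70 by limma on unfiltered FPKM plus 1, and FKBP4, which sits on HSP90 bound to steroid receptors, from 294 ± 4.40 to 116 ± 1.46 CPM (log2 fold change -1.35, SE 0.05, adjusted p = 1.2e-17). CDC37L1 and UNC45A were the 2 changed higher, by 0.28 and 0.26, and CDC37L1 kept its call in 8 of 16 alternatives. Of 8 HSP70 co-chaperone genes, all tested, 2 were changed higher and 5 lower (median -0.19), and none was a DEG. BAG6 was higher by 0.51 (adjusted p = 2.1e-09) and BAG4 lower, at a log2 fold change of -0.36 (adjusted p = 0.0017). The summed level of the 8 genes rose, from 1264 to 1300 CPM in controls to 1390 to 1429 CPM with ILL. Within it, BAG6 went from 481 ± 19.8 to 686 ± 32.0 CPM. BAG2, the other gene changed higher (0.23), kept its call in 7 of 16 alternatives.

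Among other HSP70 and HSP110 family genes, 8 of 9 were tested, 1 was changed higher and 4 lower, with a median log2 fold change of -0.30. HSPA14 fell from 40.0 ± 2.41 to 16.0 ± 1.57 CPM (log2 fold change -1.32, SE 0.09, adjusted p = 7.2e-13). HSPA6, a strictly inducible HSP70, stood at 0.870 ± 0.431 CPM in controls and 0.364 ± 0.130 CPM with ILL (adjusted p = 0.035) and was called in 8 of the 14 alternatives that tested it. HSPA4L was changed higher by 0.20 and kept that call in 12 of 16 alternatives.

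The CCT chaperonin, which folds actin and tubulin in the cytosol, and prefoldin, which delivers clients to it, fell almost throughout. All 14 genes were tested, none was changed higher, 13 were changed lower and 1 was a DEG, and the median log2 fold change was -0.74. CCT2 fell from 244 ± 8.08 to 111 ± 3.44 CPM (log2 fold change -1.13, SE 0.05, adjusted p = 1.0e-15) and TCP1 from 223 ± 6.41 to 116 ± 1.08 CPM (-0.94, adjusted p = 2.7e-14). The smallest change among those called was in PFDN1, at -0.21 (adjusted p = 0.0066).

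Beside HSPD1 and HSPE1, the mitochondrial chaperones and proteases were mixed. Of 15 genes, all tested, 2 were changed higher and 9 lower, with a median log2 fold change of -0.22. TRAP1, the HSP90 of mitochondria, fell from 249.9 ± 11.7 to 100.1 ± 3.25 CPM (log2 fold change -1.32, SE 0.05, adjusted p = 8.8e-17), and GRPEL1, the exchange factor of mitochondrial HSP70, fell from 78.3 ± 4.20 to 39.5 ± 2.76 CPM (-0.99, adjusted p = 2.3e-12). Mitochondrial HSP70 itself, HSPA9, fell by 0.32 on the log2 scale (adjusted p = 3.2e-06). The protease LONP1 and the second exchange factor GRPEL2 rose, by log2 fold changes of 0.50 and 0.51 (adjusted p = 1.7e-07 and 1.4e-06).

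**Figure D4:**
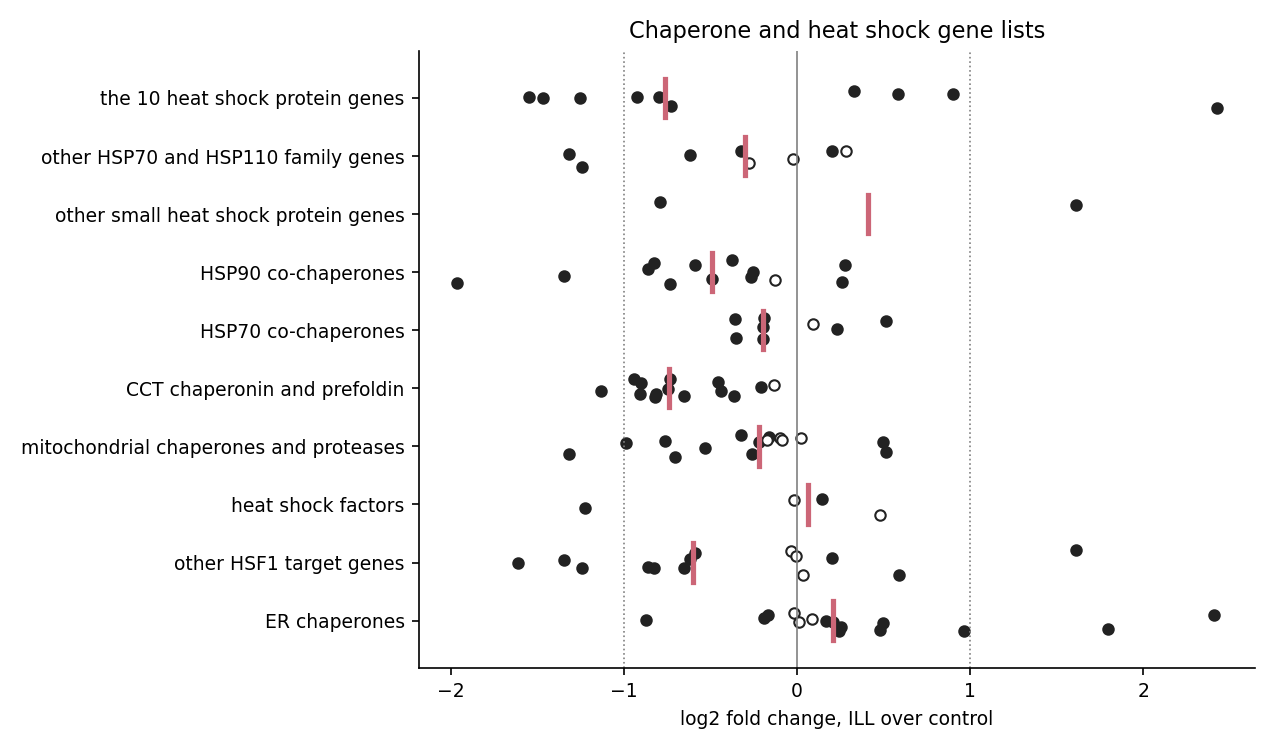
Log2 fold change of ILL over control (horizontal axis) for the tested genes of the 10 heat shock protein genes and of 9 related lists, with filled points for genes changed at an adjusted p-value under 0.05, open points for the others, a bar for the median and dotted lines at -1 and 1. The heat shock protein genes lie on both sides of 0 with a median of -0.76, the CCT and prefoldin genes lie wholly below 0, and most ER chaperones above it.

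Of 4 genes on the list of heat shock factors, all tested, 1 was changed slightly higher (HSF1), 1 was a DEG lower (HSF2) and 2 were not changed. HSF1 was at 81.2 ± 1.53 CPM in controls and 89.8 ± 3.86 CPM with ILL (log2 fold change 0.14, SE 0.06, edgeR adjusted p = 0.027), and that call held in 9 of 16 alternatives. HSF2 fell from 12.3 ± 1.14 to 5.28 ± 0.356 CPM (log2 fold change -1.22, SE 0.13, adjusted p = 1.3e-08). Of 15 other genes known as HSF1 targets 14 were tested, 3 were changed higher and 8 lower, with a median log2 fold change of -0.60. DNAJB1, the HSP40 partner of HSP70 and a textbook HSF1 target, stood at 199 ± 8.52 CPM in controls and 195 ± 4.31 CPM with ILL (log2 fold change -0.03, SE 0.05, adjusted p = 0.586). At the lower end of the list, CACYBP fell from 173 ± 9.57 to 56.6 ± 1.64 CPM (log2 fold change -1.61, adjusted p = 6.8e-18). HSPB8 and FKBP4, given above, belong to this list too, and some genes were counted in 2 lists.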

How the data were processed

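RNA was extracted with TRIzol and made into standard Illumina mRNA-seq libraries, 3 per group, whose strand setting is not given. The authors deposited whole-number read counts per gene symbol, without normalization, and FPKM values. Each FPKM value above 0 (88055 in all, 100%) came back from its count with a whole-number length and the summed counts of its library, within 0.1%. The submitters' processing notes name GRCh38 and DESeq2, and the aligner, counter and annotation are not given in the sources used here. Replicates were not pooled.

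Genes were filtered with edgeR's filterByExpr, library sizes were scaled by TMM, and the groups were compared by quasi-likelihood tests in edgeR, with p-values adjusted by Benjamini-Hochberg over 13066 of 19470 genes (edgeR 4.0.16, R 4.3.3, biological coefficient of variation 0.0717). The step was tested on simulated data. Total counts of 34282764 to 37758569 per library leave the precision of most genes to the spread between libraries. Libraries of a group differed by more than the noise of counting (chi-square over its degrees of freedom, 5.15 to 11.8). The members and the lists were chosen with earlier results of these data known, so their counts are descriptions. The genes named are the 10 members, at most the 2 highest and 2 lowest log2 fold changes among the changed genes of each list, the genes of the 8 ratios, and HSF1, HSF2 and DNAJB1. Markers were named as a check of the cells. Shared 50- and 100-base stretches were counted in GENCODE 29 transcripts, using for each gene the coding transcript nearest in length to that behind its FPKM. The alternatives were DESeq2 (1.42.0) and its size factors, library size only, other filters, a replicate block, each library left out, limma (3.58.1) on log2 of FPKM plus 1 or 0.1, and HSPA1A and HSPA1B summed. No protein sequence was used here, and the result of 1 gene the rule would name is not reported here.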

Additional observations from a re-analysis of the deposited data

How the results depend on the processing

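All 10 heat shock protein genes kept their direction and their call in each of the 15 or 16 model alternatives run for them, and 1 gene higher and 3 lower were DEGs in all 16. The highest adjusted p-value among them was 0.0013, for BAG3. With HSPA1A and HSPA1B summed, 9 of 9 genes were changed. The replicate numbers shared by the groups were not found to pair the libraries, since the deviations of same-numbered libraries correlated at 0.011, -0.022 and -0.018, and with the replicate block 10 genes were changed and 4 were DEGs.

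The median log2 fold change of -0.76 went to -0.83 with library size only and with limma on FPKM plus 0.1 or plus 1 (with and without a filter), and to -0.80 with HSPA1A and HSPA1B summed, and was -0.77 to -0.75 when any library was left out. The change in the share of counts, -0.203 percentage points (-0.210 to -0.197 when any library was left out), turned to 0.151 by FPKM, and was -0.335 for the 9 genes other than HSPB1, a choice made after the data were seen. All 8 count ratios kept their direction. Of 27 counts over the related lists, 18 stayed within 1.5 times in every alternative. DEGs among all genes numbered 3120, and 1591 with limma on FPKM plus 1, or 1609 without a filter, of which 668 and 680 were higher (1635 in the edgeR fit; 909 with plus 0.1) and 923 and 929 lower (1485 in the edgeR fit). Among the 10 genes the depth sets little limit except for HSPE1, with 184 to 720 counts. Other genes named were also at low counts, such as FKBP5 (73 to 422), HSF2 (171 to 474), HSPB8 (191 to 597) and the genes under 1 CPM.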
